A study of Mus musculus with 6 samples.

Results

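Ionocytes are rare epithelial cells that move chloride, bicarbonate and protons, and the genes described here are 8 genes of their programme: the transcription factors Foxi1, Foxi2 and Ascl3, the chloride and bicarbonate channel Cftr, and Atp6v1b1, Atp6v0d2, Atp6v1c2 and Atp6v1g3, which encode subunits of the proton pump (V-ATPase) used by particular cell types. They were taken by name from a table of 52636 mouse genes, and all 8 were found and tested. The study sorted mTEC, the epithelial cells of the thymic medulla, from thymi of C57BL/6 mice at 6 weeks of age, without any genetic change or treatment named, in order to learn what the non-tuft-like cells are and how much of the tuft-like expression programme they have. Both populations were UEA1 positive, low for MHCII and negative for Sca1 and CD63, with CD80 given as negative in the labels and as low in the study's text. The tuft-like cells also carried CD117, the product of Kit, and CD66a, the product of Ceacam1, and the non-tuft-like cells carried neither. Each population gave 3 libraries of ultra-low input bulk RNAseq. The labels do not say whether these came from separate mice, so the p-values measure the spread between libraries, which may be technical.

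In airway and salivary epithelium, kidney and inner ear, Foxi1 is the transcription factor that drives ionocytes and their relatives, the intercalated cells of the kidney, and Ascl3 and Foxi2 are expressed in the same lineages. Among the genes that Foxi1 is known to switch on there are the restricted V-ATPase subunits. The V-ATPase itself is present in every cell, where a soluble part (V1) splits ATP and a membrane part (V0) carries protons into lysosomes and other vesicles, and proton-secreting cells replace some of its common subunits by restricted paralogs and place the pump at the cell surface. In the thymus, ionocyte-like and tuft-like cells both belong to the mTEC that take on features of peripheral epithelia. In its single-cell data from mice of other ages, the study could not robustly identify ionocyte genes among thymic epithelial subsets.

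The libraries held from 20097617 to 48369825 reads assigned to genes. Levels are given as CPM (read counts relative to the library size after TMM scaling), and log2 fold changes are positive where the tuft-like level is higher, each with an approximate standard error (SE). A gene was called at a false discovery rate (FDR) under 0.05 in edgeR's quasi-likelihood test over all 32496 genes tested. In the tuft-like libraries Dclk1 reached 1584 ± 290 CPM against 28.5 ± 7.27 CPM in the non-tuft-like libraries (SD, n = 3), while Aire stood at 20.5 ± 2.56 and 292.0 ± 53.3 CPM (SD, n = 3), and all 14 tuft genes examined were called higher. Of the sort markers, Ceacam1 was called higher (log2 fold change 4.12) and Kit was not (1.24, edgeR FDR 0.0678), although DESeq2, the likelihood ratio test and limma voom called both and 8 of 14 alternative settings called Kit. Tuft-like replicate 3 stood apart: 19.7% of its reads were assigned to no feature in counting, against 34.4% to 61.6% in the other libraries. Whether such reads lay inside or outside genes cannot be told from the counts. In tuft-like replicate 3, 24233 genes had a count, against 32670 to 44068 in the other libraries. Its values are therefore given beside each result they touch. In sorted bulk samples, fewer cells of a type and less RNA per cell cannot be told apart.

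Promoter sequences for 7 of the 8 members were found in RefSeq (build GRCm38.p6, the build mm10 to which the reads were aligned), Atp6v0d2 being the one missing. They were searched on both strands, from 250 bases before to 50 bases after the start, for the forkhead core TGTTTAC, which reads as GTAAACA on the other strand, the octamer ATGCAAAT, which reads as ATTTGCAT there and is bound by POU factors such as Pou2f3, the tuft cell regulator, and the E-box CAGCTG, a motif of basic helix-loop-helix factors. The 3 sequences shown are those of the pair of members that differed between the populations and of Atp6v1b1, each as the 250 bases before the start, 5′ to 3′ on the gene's strand, with capitals marking a match. They lie at chr11:34208090-34208339 (Foxi1, minus strand), chr12:17324731-17324980 (Atp6v1c2, minus strand) and chr6:83742767-83743016 (Atp6v1b1, plus strand).
Foxi1: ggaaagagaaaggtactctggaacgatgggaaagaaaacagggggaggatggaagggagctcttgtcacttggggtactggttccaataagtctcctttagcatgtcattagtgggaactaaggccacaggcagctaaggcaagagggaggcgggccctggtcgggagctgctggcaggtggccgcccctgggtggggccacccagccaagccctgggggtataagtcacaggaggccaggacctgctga
Atp6v1c2: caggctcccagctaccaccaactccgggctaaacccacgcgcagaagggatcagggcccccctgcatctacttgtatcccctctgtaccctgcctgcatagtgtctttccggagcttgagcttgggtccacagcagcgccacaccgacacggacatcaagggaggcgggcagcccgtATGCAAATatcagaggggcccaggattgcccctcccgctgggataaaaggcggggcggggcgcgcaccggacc
Atp6v1b1: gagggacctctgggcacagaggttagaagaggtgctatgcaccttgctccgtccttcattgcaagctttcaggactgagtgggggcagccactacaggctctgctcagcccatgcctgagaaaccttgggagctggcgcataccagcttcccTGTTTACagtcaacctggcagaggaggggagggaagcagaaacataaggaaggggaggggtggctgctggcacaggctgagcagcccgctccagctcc

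Atp6v1b1 held the forkhead core 98 bases before its start, as did 3.65% of all 32851 promoters somewhere in the window. The octamer, found in 1.74% of all promoters, lay 73 bases before the start of Atp6v1c2, at a RefSeq start that is inside the longer GENCODE gene. No other match of the 3 motifs was found in the 7 windows, Foxi1's included, and the E-box occurs in 16.3% of all promoters.

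Foxi1 (ENSMUSG00000047861, chromosome 11 of mm10, 34204338 to 34208089, 2 exons) was the member called higher in tuft-like mTEC. The non-tuft-like replicates 1, 2 and 3 had 182, 242 and 173 counts of Foxi1, which is 5.74, 5.15 and 5.50 CPM. In the tuft-like replicates 1, 2 and 3 the counts were 1207, 1694 and 1431, or 49.9, 49.5 and 39.5 CPM. The populations were far apart, and the values within each population were close to each other. The means were 46.3 ± 5.88 and 5.46 ± 0.297 CPM (SD, n = 3), and Foxi1 rose by a log2 fold change of 3.08 (SE 0.37, FDR 0.00169 in edgeR's quasi-likelihood test). Foxi1 ranked 138th by fold change among the 378 genes called higher, remained called under all 14 alternative settings, and its log2 fold change stayed between 3.03 and 3.15 whichever library was left out. Over its 6 values a two-sided exact permutation test gave p 0.10, which no comparison of 3 libraries with 3 can go below.

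Of the 8 members, Foxi1 was called higher and Atp6v1c2 was called lower, while 2.11% of all tested genes were called (1.16% higher and 0.951% lower). An unadjusted p under 0.05 was reached by 5 members, beside 8.97% of all tested genes. DESeq2 called 5 members (5.86% of all tested genes), the likelihood ratio test 3 (3.80%) and limma voom 2 (2.78%). In Foxi1, Foxi2, Atp6v0d2 and Atp6v1g3 the lowest tuft-like library lay above the highest non-tuft-like one, as in 7.18% of all tested genes, and in Atp6v1c2 the order was the opposite, as in 8.85%. These 5 of 8 stand beside 16.0% of all tested genes whose populations did not overlap in either direction. The log2 fold change was above 0 in 5 members and in 51.0% of all tested genes. In the other 3 members, Ascl3, Cftr and Atp6v1b1, the populations overlapped. The median log2 fold change over the 8 members was 2.02, beside 0.02 over all tested genes, and the values ran from -2.12 to 3.50, so the members did not move together. The members were chosen with earlier results of these data known, so their contrast with all tested genes is a description and not independent evidence.

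**Figure D1:**
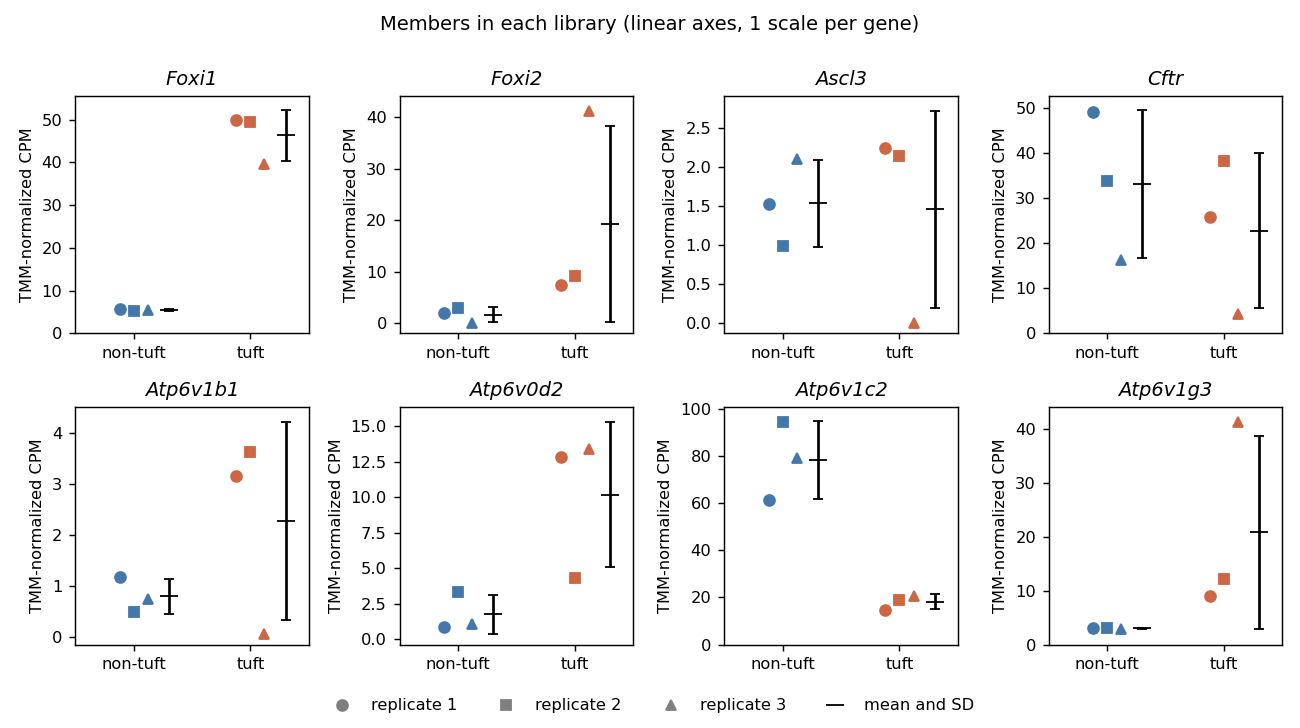
Level of each of the 8 members in each library, as TMM-normalized CPM on a linear axis with its own scale per gene; symbols mark replicates 1, 2 and 3, and the bar gives the mean and SD of 3 libraries. Foxi1 lies between 39.5 and 49.9 CPM in the tuft-like and between 5.15 and 5.74 CPM in the non-tuft-like libraries, Atp6v1c2 shows the opposite order, and tuft-like replicate 3 (triangle) is the highest library for Foxi2 and Atp6v1g3 and the lowest for Ascl3, Cftr and Atp6v1b1.

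Foxi2 (chromosome 7, 135410308 to 135413622), a forkhead paralog of Foxi1, was unevenly high among the tuft-like libraries. It had 61, 144 and 4 counts in the non-tuft-like replicates 1, 2 and 3 (1.92, 3.07 and 0.127 CPM) and 181, 317 and 1493 counts in the tuft-like replicates 1, 2 and 3 (7.48, 9.27 and 41.2 CPM). The groups did not overlap, but tuft-like replicate 3 alone held most of the signal. Its log2 fold change of 3.50 (SE 1.12) was larger than that of Foxi1 and did not pass the test (edgeR FDR 0.221), though DESeq2 and the fit without a filter on low counts called it, and it was 2.25 at its lowest with a library left out. Where Foxi1 was level among the tuft-like libraries, Foxi2 was not, so the ratio of Foxi2 to Foxi1 counts was 0.150, 0.187 and 1.04 in tuft-like replicates 1, 2 and 3. The third gene of the family, Foxi3, had at most 8 counts in any library and was not tested.

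Ascl3 (chromosome 7, 109727465 to 109731726), a basic helix-loop-helix factor found in ionocytes, did not follow Foxi1. Its counts were 48, 46 and 66 in non-tuft-like against 54, 73 and 0 in tuft-like replicates 1, 2 and 3. On the CPM scale that is 1.51, 0.979 and 2.10 against 2.23, 2.13 and 0. The groups overlapped, with tuft-like replicate 3 as the one library without a read, where a count of 0 allows up to 3 counts, or 0.0828 CPM in that library. The log2 fold change was -0.07 (SE 1.79, edgeR FDR 1), and 0.47 (SE 1.06) without tuft-like replicate 3, so neither a rise nor a fall was detectable.

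Foxi1 was also set beside all other forkhead genes, a comparison chosen after its values were seen. Among 33 tested protein-coding forkhead genes the median log2 fold change was -0.05. Foxi1 was the one called higher by edgeR's quasi-likelihood test, and 1 was called lower, beside 1.16% and 0.951% of all tested genes. Foxi2, of the same set, had a larger log2 fold change (3.50) and was called by DESeq2 and by the fit without a filter. The one called lower was Foxn1, the regulator of thymic epithelial identity, which fell by 3.48 on the log2 scale (SE 0.31, edgeR FDR 0.000430).

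As a share of its tuft-like level, the non-tuft-like level of Foxi1 was larger than that of most tuft genes examined. Its mean CPM in the non-tuft-like libraries was 11.8% of that in the tuft-like libraries, while for the 14 tuft genes this share was at most 22.5% (Pou2f3) with a median of 4.92%, and 13 of the 14 lay below Foxi1. These tuft genes were listed with earlier results of these libraries known. The share also depends on the tuft-like level. Per exon kb, Foxi1 had mean levels of 2.32 CPM in the non-tuft-like and 19.6 CPM in the tuft-like libraries. For Dclk1, with a share of 1.80%, they were 1.86 and 103.6 CPM. In the non-tuft-like libraries Foxi1 was at 0.850 to 1.37 times the olfactory receptor reference described below. The share therefore does not show that Foxi1 was kept there. Per count of Pou2f3, the factor required for tuft cells, Foxi1 had 0.0458, 0.0441 and 0.0489 counts in replicates 1, 2 and 3 of the non-tuft-like cells, against 0.140, 0.0964 and 0.0559 counts in those of the tuft-like cells. The ratio was thus higher in each tuft-like library, although in tuft-like replicate 3 only slightly.

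**Figure D2:**
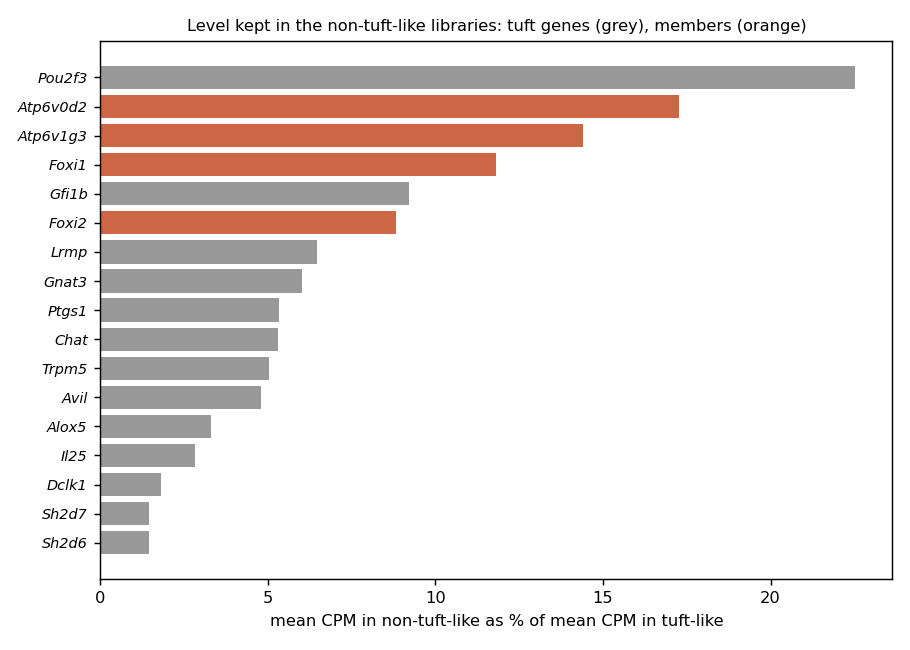
Mean CPM in the non-tuft-like libraries as a percentage of the mean CPM in the tuft-like libraries, for the plotted tuft genes (grey) and the 4 members without overlap and higher in tuft-like mTEC (orange). Foxi1 stands at 11.8%, and Pou2f3 is the one plotted tuft gene above it, at 22.5%.

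The genes whose pattern over the 6 libraries was closest to that of Foxi1 were sought by the smallest root mean square difference of centred log2 CPM, among 13177 other protein-coding genes of at least 5 CPM. They were Tas2r108 (0.216), Plcg2 (0.222), Slitrk6 (0.265), Tas2r137 (0.276) and Ccn3 (0.293), against a median difference of 1.60 over all these genes. Tas2r108 and Tas2r137 encode bitter taste receptors, and Plcg2 encodes a phospholipase C. All 5 were called higher, with log2 fold changes between 2.75 and 3.21, which follows from their choice by likeness to Foxi1.

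Cftr (chromosome 6, 18170687 to 18322768), the channel that marks airway ionocytes and that other secretory epithelia also express, was present in both populations and did not follow Foxi1. It had 49.2, 33.8 and 16.4 CPM in non-tuft-like against 26.0, 38.3 and 4.25 CPM in tuft-like replicates 1, 2 and 3. The groups overlapped, and the lowest library was tuft-like replicate 3 with 154 counts. The means of 33.1 ± 16.4 and 22.8 ± 17.2 CPM (SD, n = 3) gave a log2 fold change of -0.54 (SE 0.68, edgeR FDR 1), which was -0.08 at its highest and -1.15 at its lowest with a library left out. Counts of Foxi1 per count of Cftr were 0.117, 0.153 and 0.336 in non-tuft-like replicates 1, 2 and 3 against 1.92, 1.29 and 9.29 in tuft-like replicates 1, 2 and 3, without overlap. A short stretch of its exons (129 bp of 7765) overlaps Gm15592 on the other strand, and whether strand was used in counting is not stated.

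The closest patterns to Cftr were those of Gm12185 (0.184), Haus4 (0.248), Lix1 (0.262), Zfp30 (0.282) and Ireb2 (0.288), against a median of 1.28. All 5 were lowest in tuft-like replicate 3 and none was called by edgeR's quasi-likelihood test (FDR 1 each). They share that low library with Cftr, which follows from their choice by likeness to it.

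Among the restricted V-ATPase subunits, Atp6v1c2 (ENSMUSG00000020566, chromosome 12, 17284721 to 17329359), a C subunit of V1 known from lung and kidney, moved against Foxi1. It had 1949, 4433 and 2496 counts in replicates 1, 2 and 3 of the non-tuft-like cells, against 351, 651 and 750 counts in those of the tuft-like cells. On the CPM scale these were 61.5, 94.4 and 79.3 against 14.5, 19.0 and 20.7. The lowest non-tuft-like library was well above the highest tuft-like library. The gene fell by 2.12 on the log2 scale (SE 0.31, edgeR FDR 0.00606), from 78.4 ± 16.5 to 18.1 ± 3.21 CPM (SD, n = 3), and remained called under all 14 alternative settings (with an FDR of at most 0.0476 when any library was omitted). A stretch of 50 bp of its 2174 exonic bp overlaps Pdia6 on the other strand. It was the most abundant member per length in the non-tuft-like libraries, at 36.1 ± 7.57 CPM per exon kb (SD, n = 3), while Foxi1 had the highest mean per length in the tuft-like libraries, at 19.6 ± 2.49 CPM per exon kb (SD, n = 3). In tuft-like replicate 3 Atp6v1g3 was above Foxi1 per length, at 17.4 against 13.3 times the reference level of olfactory receptor genes (the 99th percentile of their counts per exon kb).

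Atp6v1g3 (chromosome 1, 138273738 to 138289462), the G subunit of the V1 stalk known from kidney, was higher in each tuft-like library. It had 3.12, 3.02 and 2.86 CPM in replicates 1, 2 and 3 of the non-tuft-like cells, against 9.01, 12.1 and 41.4 CPM in those of the tuft-like cells. The non-tuft-like values were nearly equal, whereas tuft-like replicate 3 was well above the other tuft-like libraries. The log2 fold change of 2.80 (SE 0.72) did not pass edgeR's quasi-likelihood test (FDR 0.0964), and 4 of 14 alternative settings called it, among them DESeq2 and the likelihood ratio test. Without tuft-like replicate 3 it was 1.78.

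Atp6v0d2 (chromosome 4, 19876841 to 19922605), a d subunit of V0 best known from osteoclasts, macrophages and kidney, had 0.852, 3.34 and 1.08 CPM in non-tuft-like against 12.9, 4.30 and 13.4 CPM in tuft-like replicates 1, 2 and 3. The groups were just apart, at 3.34 and 4.30 CPM. Its log2 fold change of 2.53 (SE 0.96) was not called (edgeR FDR 0.365), and DESeq2 was the only one of 13 alternatives to call it. Beside it, the 13 macrophage and osteoclast markers had summed levels of 170 to 232 CPM in the tuft-like and 379 to 472 CPM in the non-tuft-like libraries. Of these markers 2 were called lower (Cd68 and Mmp9) and 0 were called higher, beside 0.951% and 1.16% of all tested genes. In tuft-like replicate 3, where Atp6v0d2 was highest, 5 of the 13 (C1qa, Itgam, Acp5, Ocstamp and Dcstamp) had a count of 0. Other genes of the list were present in that library, with Lyz2 at 170 CPM, Csf1r at 14.2 CPM, Ptprc at 8.31 CPM and Ctsk at 6.71 CPM. Ptprc and Ctsk had higher tuft-like than non-tuft-like means (23.2 against 8.68 CPM and 11.7 against 6.46 CPM), with overlap between the populations. The part of such cells in the level of Atp6v0d2 was not tested.

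Atp6v1b1 (chromosome 6, 83742990 to 83758855), the B subunit of V1 used by intercalated cells and a known target of Foxi1, was scarce in every library. It had 37, 23 and 23 counts in non-tuft-like against 76, 124 and 2 counts in tuft-like replicates 1, 2 and 3, that is 1.17, 0.490 and 0.731 CPM against 3.14, 3.62 and 0.0552. Tuft-like replicates 1 and 2 lay above the non-tuft-like libraries, and tuft-like replicate 3 lay below all of them. The log2 fold change was 1.51 (SE 1.65, edgeR FDR 1), and 2.05 without tuft-like replicate 3. In that library Foxi1 had 1431 counts beside the 2 counts of Atp6v1b1.

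These levels were set beside those of 1092 olfactory receptor genes, a family that few cell types other than olfactory neurons use. The study describes mTEC that express tissue-restricted antigens, so this family need not be silent here. It serves as a reference level and does not mark a level without expression. Foxi1 lay between 7.62 and 13.3 times the 99th percentile of that family's counts per exon kb in the tuft-like libraries and between 0.850 and 1.37 times in the non-tuft-like libraries. Atp6v1b1 lay below that percentile in all 6 libraries, at 0.410 times or less. For Atp6v1g3 the range was 1.72 to 17.4 times in the tuft-like and 0.553 to 0.931 times in the non-tuft-like libraries. Atp6v1c2 lay above it throughout, at 2.40 to 25.02 times. Foxi2 was at 1.014, 1.73 and 12.3 times in tuft-like replicates 1, 2 and 3 and at 0.665 times or less in the non-tuft-like libraries. For Atp6v0d2 the values were 1.70, 0.783 and 3.92 times in tuft-like replicates 1, 2 and 3 and 0.709 times or less in the non-tuft-like libraries. Ascl3 ranged from 0 to 1.51 times and Cftr from 0.434 to 3.56 times over the 6 libraries, both lowest in tuft-like replicate 3. The olfactory genes themselves summed to between 255 and 2216 CPM per library and were lowest in tuft-like replicate 3 and highest in tuft-like replicate 1. The share of reads assigned to no feature had its lowest and highest values in the same libraries, and its part in the levels of Ascl3, Cftr and Atp6v1b1 was not tested.

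The other subunits of the pump were then examined. Of the 23 genes for V1 and V0 subunits, 1 was called lower (Atp6v1c2) and 0 were called higher by edgeR's quasi-likelihood test, beside 0.951% lower and 1.16% higher of all tested genes. An unadjusted p under 0.05 was found for 4 (8.97% of all tested genes), and DESeq2 called 4 (5.86%), the likelihood ratio test 2 (3.80%) and limma voom 1 (2.78%). The 16 common subunits of at least 20 CPM had a median absolute log2 fold change of 0.21, with values from -0.85 (Atp6v0a1) to 0.32 (Atp6v1f), beside a median absolute value of 0.62 over all tested genes, many of which have lower counts. Atp6v0a1, an a subunit of the membrane part, was at 304, 305 and 275 CPM in non-tuft-like against 124, 161 and 205 CPM in tuft-like replicates 1, 2 and 3, without overlap and without passing the test (edgeR FDR 0.258), and 3 of 14 alternative settings, DESeq2 among them, called it.

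The common paralogs of the 4 restricted members overlapped between the populations, unlike Atp6v0a1. Atp6v1b2 had 413.0 ± 10.8 CPM in non-tuft-like against 296.6 ± 120.6 CPM in tuft-like libraries (SD, n = 3), Atp6v1c1 161.8 ± 32.2 and 178.7 ± 41.3 CPM (SD, n = 3), and Atp6v0d1 75.3 ± 4.38 and 80.1 ± 10.3 CPM (SD, n = 3). Atp6v1g1 stood at 261.5 ± 16.7 and 207.3 ± 80.7 CPM (SD, n = 3), with log2 fold changes of these 4 genes between -0.48 and 0.14. Atp6v1g2, the G subunit of neurons, had 35.2 CPM in tuft-like replicate 3 and between 6.18 and 8.45 CPM in the other libraries. Atp6v0a4, the a subunit of intercalated cells and another gene that ionocytes use, was at 11.8, 6.94 and 17.3 CPM in non-tuft-like against 8.60, 8.24 and 0.0828 CPM in tuft-like replicates 1, 2 and 3. It overlapped between the populations (log2 fold change -1.09, SE 1.16, edgeR FDR 1), with tuft-like replicate 3 far below the rest, as for Atp6v1b1.

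Of the 12 accessory and assembly genes of the pump, 2 were called higher, beside 1.16% of all tested genes. Dmxl2, which encodes a partner in the assembly of V1 with V0, had 71.8, 83.6 and 64.6 CPM in non-tuft-like against 182, 274 and 209 CPM in tuft-like replicates 1, 2 and 3 (log2 fold change 1.60, SE 0.28, edgeR FDR 0.0155). Leaving out any of the non-tuft-like libraries, or tuft-like replicate 2, ended this call (edgeR FDR up to 0.106). Oxr1, an oxidation resistance gene whose protein domain is found in V-ATPase regulators, had 58.6, 54.0 and 50.2 CPM in non-tuft-like against 148, 193 and 234 CPM in tuft-like replicates 1, 2 and 3 (log2 fold change 1.82, SE 0.28, edgeR FDR 0.00749), and leaving out non-tuft-like replicate 2 ended the call (edgeR FDR 0.0657). The median log2 fold change of the 12 was 0.06.

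**Figure D3:**
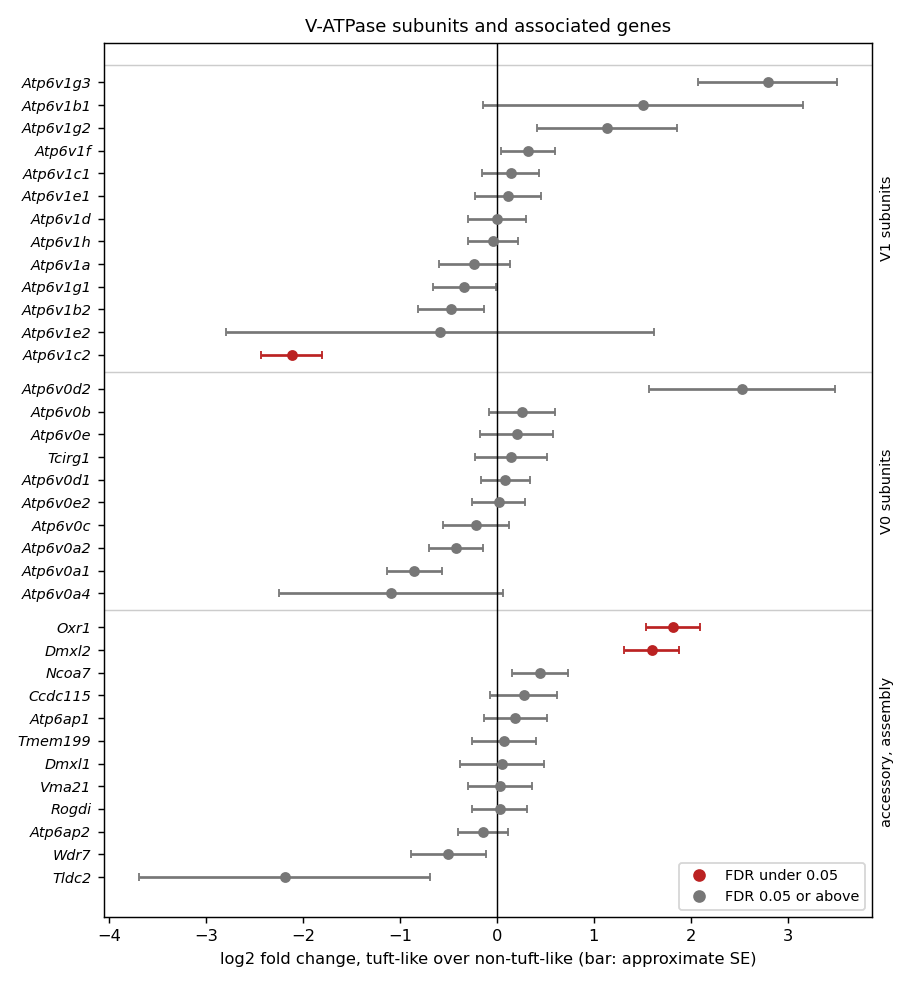
Log2 fold change (tuft-like over non-tuft-like) of 35 V-ATPase subunit, accessory and assembly genes with the approximate SE as the bar; red marks an FDR under 0.05. Atp6v1c2 (-2.12) is the called subunit and Dmxl2 (1.60) and Oxr1 (1.82) are the called associated genes, while most common subunits lie near 0.

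Because library scaling does not enter a ratio within a library, the share of each restricted paralog among its own paralogs was computed from counts per exon kb. Atp6v1c2 made up 45.8%, 58.5% and 61.9% of the C subunit counts in replicates 1, 2 and 3 of the non-tuft-like cells, against 21.6%, 21.2% and 19.6% in those of the tuft-like cells. The means of 55.4% ± 8.47 and 20.8% ± 1.03 (SD, n = 3) differed by -34.6 percentage points, without overlap. Atp6v1g3 made up 0.658%, 0.709% and 0.666% of the G subunit counts in non-tuft-like against 3.75%, 3.61% and 7.42% in tuft-like replicates 1, 2 and 3. The shares did not overlap, and the common G subunits held most of the counts in all 6 libraries. Atp6v0d2 made up 0.765%, 2.67% and 0.973% of the d subunit counts in non-tuft-like against 10.9%, 3.37% and 8.99% in tuft-like replicates. In each of these 3 families a two-sided exact permutation test gave p 0.10, its lower limit here, and 0.167 after adjustment over the 5 families compared.

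The other families overlapped. Atp6v1b1 made up 0.233% ± 0.0983 of the B subunit counts in non-tuft-like against 1.19% ± 1.05 in tuft-like libraries (SD, n = 3; exact permutation p 0.40, adjusted 0.50), and Atp6v0a4 2.85% ± 1.20 and 2.30% ± 2.02 of the a subunit counts (SD, n = 3; exact permutation p 0.80, adjusted 0.80). In tuft-like replicate 3 the shares of both were the lowest of all libraries, at 0.0158% and 0.0237%.

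**Figure D4:**
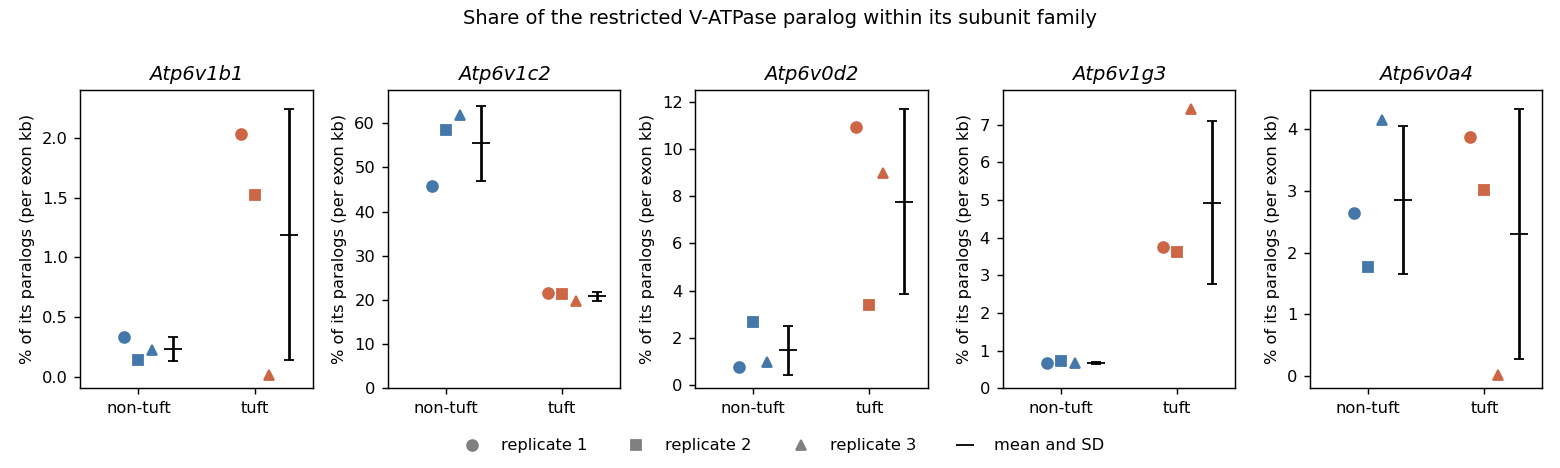
Share of each restricted V-ATPase paralog in the summed counts per exon kb of its subunit family, in percent, per library, with the mean and SD of 3 libraries. Atp6v1c2 falls from between 45.8% and 61.9% to between 19.6% and 21.6%, Atp6v1g3 and Atp6v0d2 are higher in every tuft-like library, and Atp6v1b1 and Atp6v0a4 overlap.

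The remaining genes of the ionocyte programme went in both directions. Of 14 further ionocyte genes 13 were tested, with 2 called lower and 0 called higher by edgeR's quasi-likelihood test, beside 2.11% of all tested genes called in either direction. There were 6 at an unadjusted p under 0.05 (8.97% of all tested genes), and DESeq2 called 4 (5.86%), the likelihood ratio test 4 (3.80%) and limma voom 3 (2.78%), in either direction. The median log2 fold change was -0.05, beside 0.02 over all tested genes. The called genes were Coch, which encodes the secreted protein cochlin, and Igf1, which encodes a growth factor, and neither moves ions. Coch had 21.8, 47.0 and 11.8 CPM in non-tuft-like against 3.39, 1.67 and 1.49 CPM in tuft-like replicates 1, 2 and 3 (log2 fold change -3.62, edgeR FDR 0.0252), a call that ended when non-tuft-like replicate 2, tuft-like replicate 2 or tuft-like replicate 3 was omitted (edgeR FDR up to 0.311), and that limma voom did not make. Igf1 fell by 1.88 on the log2 scale (edgeR FDR 0.0473) from 35.7 ± 6.20 to 9.70 ± 2.48 CPM (SD, n = 3), a call that was kept only without tuft-like replicate 3 among the 6 omissions of a library (edgeR FDR up to 0.225).

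Hepacam2, Tfcp2l1 and Slc12a2, the sodium, potassium and chloride cotransporter gene, were each higher in every tuft-like library. They were not called by edgeR's quasi-likelihood test, while DESeq2, the likelihood ratio test and limma voom called Hepacam2 and Tfcp2l1. In the list of further ionocyte genes 4 were higher without overlap and 2 were lower, beside 7.18% and 8.85% of all tested genes. Hepacam2, which tuft cells also express, had 344.4 ± 126.2 and 882.4 ± 212.3 CPM (SD, n = 3) in non-tuft-like and tuft-like mTEC, a log2 fold change of 1.36 (edgeR FDR 0.127). Tfcp2l1, a transcription factor of distal kidney epithelium, had 67.0 ± 17.8 and 153.6 ± 35.7 CPM (SD, n = 3), with a log2 fold change of 1.20 (edgeR FDR 0.0938).

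In the list of acid-base transport in intercalated cells, 1 of 13 tested genes was called higher and 1 lower, beside 1.16% and 0.951% of all tested genes. There were 4 at an unadjusted p under 0.05 (8.97% of all tested genes), and DESeq2 called 3 (5.86%), the likelihood ratio test 3 (3.80%) and limma voom 1 (2.78%). Car2, a carbonic anhydrase gene that supplies protons to the pump, had 15.6, 24.3 and 67.1 CPM in non-tuft-like against 126, 193 and 227 CPM in tuft-like replicates 1, 2 and 3. It rose by a log2 fold change of 2.35 (SE 0.51, edgeR FDR 0.0459), and was no longer called when non-tuft-like replicate 1, non-tuft-like replicate 2, tuft-like replicate 2 or tuft-like replicate 3 was omitted (edgeR FDR up to 0.170), or with library size as the only scaling. Rhbg, an ammonia transporter gene, had 23.6, 20.3 and 22.5 CPM in non-tuft-like against 1.28, 1.64 and 2.40 CPM in tuft-like replicates 1, 2 and 3. It fell by 3.64 on the log2 scale (SE 0.60, edgeR FDR 0.0111), and was no longer called when non-tuft-like replicate 1, non-tuft-like replicate 2 or tuft-like replicate 2 was omitted (edgeR FDR up to 0.0594), or by limma voom. Of its 1937 exonic bp 1190 are shared with Gm38392 on the same strand, so its counts are uncertain. The anion exchanger genes of intercalated cells, Slc4a1 and Slc26a4, overlapped between the populations (log2 fold changes -0.58 and -0.42). Car12 (log2 fold change -1.13), Slc4a9 (-1.15) and Oxgr1 (-1.51) were lower in every tuft-like library and were not called with all libraries. Car12 was called without tuft-like replicate 3 (edgeR FDR 0.0163). In this list 4 genes had a log2 fold change above 0 and 9 below, with a median of -0.42. Without overlap 2 were higher and 4 lower, beside 7.18% and 8.85% of all tested genes. Hmx2, a homeobox gene, was at 1.11 ± 0.611 CPM in non-tuft-like against 11.4 ± 1.27 CPM in tuft-like libraries (SD, n = 3) and was not called by edgeR (FDR 0.109), at a log2 fold change of 3.37, while DESeq2 and the likelihood ratio test called it.

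**Figure D5:**
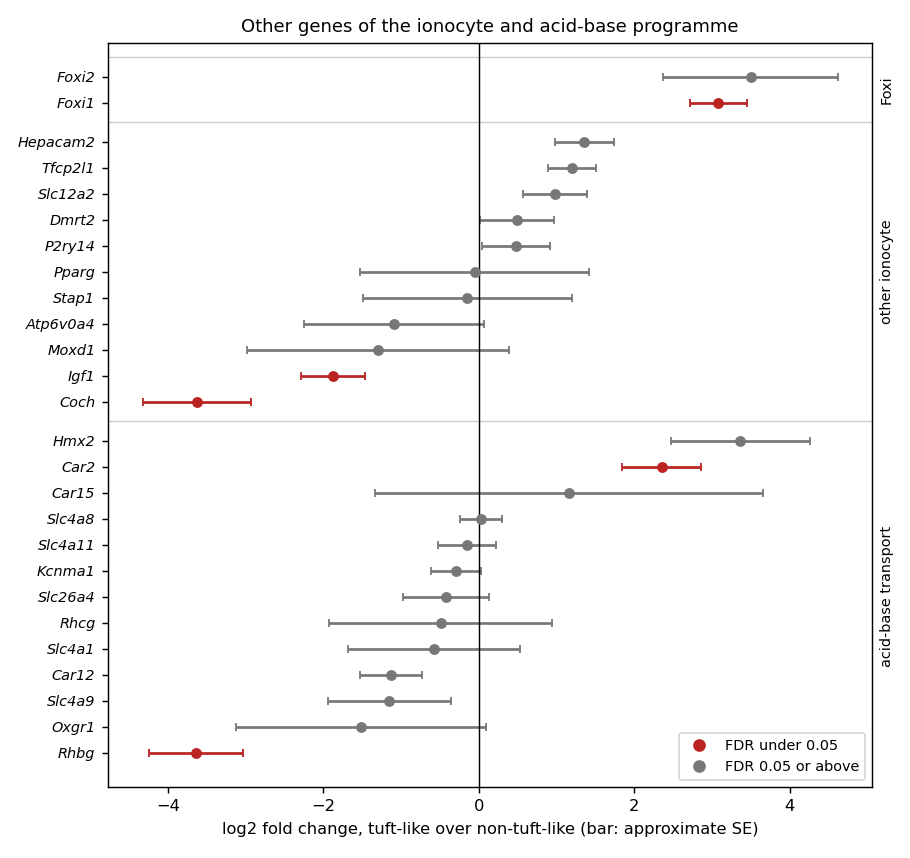
Log2 fold change (tuft-like over non-tuft-like) of Foxi genes, further ionocyte genes and acid-base transport genes that were tested and are reported here, with the approximate SE as the bar; red marks an FDR under 0.05. Foxi1 (3.08) and Car2 (2.35) are called higher and Igf1 (-1.88), Coch (-3.62) and Rhbg (-3.64) lower.

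Markers of cells that the sorts could also hold were summed beside these results. The airway secretory list, from cells that also use Cftr, ranged from 427 to 741 CPM in non-tuft-like and from 200 to 752 CPM in tuft-like libraries. In that list and in the ciliated list (206 to 517 and 215 to 299 CPM) edgeR's quasi-likelihood test called 0 of 8 genes each. At an unadjusted p under 0.05 there were 4 and 3, beside 8.97% of all tested genes. DESeq2 called 3 and 2, the likelihood ratio test 1 each and limma voom 0. Of 8 endothelial genes 1 (Tek) was called higher by edgeR's quasi-likelihood test, while DESeq2, the likelihood ratio test and limma voom each called 2. The list summed to between 88.8 and 159 CPM and to between 195 and 404 CPM, of which Tek alone gave 142 to 225 CPM in tuft-like libraries. Flt1 of the same list had the opposite order without overlap (means of 77.0 and 21.2 CPM, log2 fold change -1.86, edgeR FDR 0.0773). Fibroblast genes (48.5 to 77.8 and 38.8 to 199 CPM) and thymocyte genes (20.7 to 38.3 and 11.2 to 44.3 CPM) had 0 calls by edgeR's quasi-likelihood test, the likelihood ratio test, limma voom and DESeq2, and 0 at an unadjusted p under 0.05. All 8 fibroblast genes had a log2 fold change above 0 (median 1.05). Their sums were 199, 92.5 and 38.8 CPM in tuft-like replicates 1, 2 and 3. In tuft-like replicate 1 the endothelial gene Pecam1 had 106 CPM, against 3.07 to 8.99 CPM in the other libraries. Of 8 mature mTEC genes 5 and of 10 keratinocyte genes 5 were called lower by edgeR's quasi-likelihood test. In either direction DESeq2 called 6 and 8, the likelihood ratio test 6 and 7 and limma voom 5 and 6. Over all tested genes edgeR's quasi-likelihood test called 0.951% lower and 1.16% higher. DESeq2 called 5.86% of them, the likelihood ratio test 3.80% and limma voom 2.78%. Keratinocyte genes summed to between 3967 and 6206 CPM in non-tuft-like libraries and to between 190 and 1531 CPM in tuft-like libraries, and mature mTEC genes to between 9997 and 12496 and to between 1527 and 3330 CPM. The tuft list summed to between 868 and 1105 CPM in non-tuft-like libraries and to between 13993 and 24401 CPM in tuft-like libraries. Whether any of these cells contributed to the members' levels was not tested.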

How the data were processed

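Triplicate libraries per population were analysed. The authors trimmed adapters (Trimmomatic 0.36), mapped reads to mm10 (STAR 2.7.3a), counted them per gene using HTSeq in its intersection-nonempty mode, and deposited the raw counts. The annotation release and strand setting are not given in the sources used here. Groups came from the sample titles. The 52636 gene identifiers were matched to GENCODE M21 (99.7% matched). The 92 ERCC rows, all at 0, and the 5 HTSeq summary rows were left out of library sizes. Reads that HTSeq assigned to no feature made up 19.7% to 61.6% of the table's reads per library, and where they lay is not recorded.

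Genes passing filterByExpr (minimum count 10, minimum total 15) were TMM-normalized and tested with edgeR's quasi-likelihood test (edgeR 4.0.16, limma 3.58.1, DESeq2 1.42.0, R 4.3.3) with Benjamini-Hochberg adjustment over all tested genes. SE was approximated as the size of the log2 fold change over the root of its F statistic. The fit was tested on simulated data. Likeness used log2(CPM + 0.5). Lengths are merged exons. A count of 0 allows up to 3 counts, which covers counting error only. Alternatives were other scalings, filters and tests, a stricter FDR, the replicate number as a block and each library left out. The pairing check gave correlations of -0.156, -0.061 and -0.326 between the deviations of same-numbered libraries from their group means. With 3 libraries a population it cannot tell whether same-numbered libraries came from the same mice. The main fit did not pair them.

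The members and gene lists were chosen with earlier results of these data known. Named genes were the members, their common paralogs, called genes of the ionocyte, acid-base and V-ATPase lists, sort and identity genes and the 5 closest patterns to Foxi1 and Cftr. Forkhead genes, Atp6v0a1, Atp6v1f, Hepacam2, Tfcp2l1, Slc12a2, Slc4a1, Slc26a4, Hmx2 and the macrophage, endothelial and tuft markers named were chosen after their values were seen. Car12, Slc4a9 and Oxgr1 were chosen in the same way. Some list genes enter the counts and medians but are not reported here by name or in the plots.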

Additional observations from a re-analysis of the deposited data

How the results depend on the processing

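Foxi1 and Atp6v1c2 were called under every alternative run. The 687 genes called in all became 1045 with library size only, 1127 with no filter on low counts, 1533 with at least 10 CPM in 3 libraries, 1904 with DESeq2, 1236 with the likelihood ratio test, 319 at an FDR under 0.01, and between 376 and 922 with 1 library left out (379 without non-tuft-like replicate 2, 376 without tuft-like replicate 2). The 2 members called became 4 with no filter and 5 with DESeq2. The 3 called genes of the pump (subunits, accessory and assembly genes) became 5 with at least 10 CPM in 3 libraries, 6 with DESeq2, and between 1 and 3 with 1 library left out, 1 being without non-tuft-like replicate 2. The 4 called ionocyte and acid-base genes became 7 with DESeq2 and with the likelihood ratio test, 0 at an FDR under 0.01 (with Coch, Igf1, Car2 and Rhbg still at an unadjusted p under 0.05), and between 0 and 4 with 1 library left out: 1 without non-tuft-like replicate 1, 0 without non-tuft-like replicate 2 and 0 without tuft-like replicate 2. Of the members, Foxi1, Cftr, Atp6v1c2 and Atp6v1g3 passed the filter of at least 10 CPM. The cause of these moves was not tested. Ascl3 reversed to a log2 fold change of 0.030 with library size only, 0.22 without non-tuft-like replicate 3 and 0.47 without tuft-like replicate 3, and ranged from -0.51 to 0.47 with 1 library left out, without a call. Undivided by length, the difference in share was -23.7 percentage points for Atp6v1c2 and 6.50 for Atp6v1g3. With 1 library left out the difference in share ranged from -39.4 to -31.4 for Atp6v1c2, 3.004 to 4.91 for Atp6v1g3, 4.71 to 8.49 for Atp6v0d2, 0.536 to 1.55 for Atp6v1b1 and -1.33 to 0.589 for Atp6v0a4. With the replicate block the log2 fold change of Foxi1 was 3.08 and 2 members were called, and Igf1 alone of the genes named as called in the lists lost its call. The alternative scalings moved the median log2 fold change of all genes by less than 0.1. With 3 libraries a population, low genes such as Ascl3 and Atp6v1b1 have wide errors, and neither an equal level nor a difference was detectable for them.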
